A study of Mus musculus with 6 samples.

Results

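The genes described here are 9 transcription factor genes that regulate stratified oral epithelium, measured in mouse tongue: Trp63, Sox2, Klf4, Klf5, Grhl1, Grhl3, Ovol1, Pitx1 and Zfp750. They were chosen by name, and every array probe whose RefSeq accession belongs to one of them was taken. Of 21368 genes named on the array these are 9, read by 10 of its 55681 probes, with a pair for Trp63 and a single probe for each other gene. All 10 were well above background on all 6 arrays and passed the filter on dim probes that left 30934 probes tested.

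RNA from tongue tissue of 6 mice was hybridised to single-colour Agilent mouse arrays, and the study's design text gives 3 mice in each group. The first group, DOX, comprised 3 mice given doxycycline, an antibiotic that switches such transgenes, for 2 weeks; the second, no DOX, comprised 3 untreated mice. All 6 mice were iDek animals on the C57Bl6 background, a genotype that the labels describe as inducible for the chromatin protein Dek both ubiquitously and in squamous cells. The promoter that drives the transgene and the ages of the mice are not stated in the labels. Mice without the transgene were not analysed here, and DOX exposure and Dek induction cannot be told apart. A carcinogen appears in the title of the series and in no sample label.

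In stratified epithelium, a basal layer of dividing cells feeds layers above it that stop dividing, build desmosomes and keratin filaments and finally cornify. Trp63, a relative of p53, is required in mice for stratified epithelia to form and is on in basal cells, where Klf5 is also active. Klf4, Grhl3, Ovol1 and Zfp750 act mainly as cells leave the basal layer and differentiate. In the tongue, Sox2 marks basal progenitors and those that give rise to taste buds, and Pitx1 is a homeodomain factor of oral ectoderm.

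On each array, 56.0% to 58.3% of probes were well above background, and the signal at the 75th percentile of an array ranged from 245.6 to 263.8. Values below are log2 signals minus that percentile, called normalised log2 signal. Dek read 2.41, 2.41 and 2.27 in the DOX mice, against 2.30, 2.10 and 2.20 in the no DOX mice, and its 1 probe differed by 0.17 ± 0.11 (log2, SE) without passing the test (limma, adjusted p = 0.456). Whether that probe reads the part of Dek carried by the transgene is unknown here, so it is no check of the labels. Markers of tongue epithelium and muscle passed the filter on dim probes, which by itself does not identify the tissue. All 8 endothelial and all 8 leukocyte markers passed it too. All 8 stratified epithelium markers, such as the keratin genes Krt5, Krt14, Krt4 and Krt13, were among the tested genes, as were all 12 skeletal muscle markers.

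None of the 9 genes passed the test between DOX and no DOX mice. The test was limma over all 30934 probes with Benjamini-Hochberg adjustment and a threshold of 0.05, and over the whole array it called 0.401% of probes (124 probes: 0.278% higher and 0.123% lower with DOX). That array-wide count depended on each mouse: it was 21, 60 and 30 without DOX replicate 1, 2 or 3, and 3, 3 and 26 without no DOX replicate 1, 2 or 3. At an unadjusted p under 0.05, 2 of the 10 member probes were reached, those of Sox2 and Klf5, both lower with DOX, where 18.8% of all probes were (9.62% lower). The DOX and no DOX values did not overlap for 2 of the 10 probes, that of Klf5 and 1 of the pair for Trp63, both lower with DOX, where 25.5% of all probes had such values (12.7% lower and 12.8% higher). Mean signal was lower with DOX for 7 of the 9 genes and higher for 2. Of all 15211 tested genes, 7396 had a lower mean and 7815 a higher one, and of all tested probes 51.0% had a lower mean and 49.0% a higher one. The median log2 change over the 9 genes was -0.16 (range -0.49 to 0.41), beside 0.0086 over all tested genes and -0.0057 over all tested probes. The members' median was -0.22, -0.05 and -0.24 without DOX replicate 1, 2 or 3, and -0.29, -0.19 and -0.05 without no DOX replicate 1, 2 or 3. The counts of 2 of 10 probes lay near the array's own shares. In bulk tissue, fewer epithelial cells and less of a transcript per cell cannot be told apart.

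**Figure D1:**
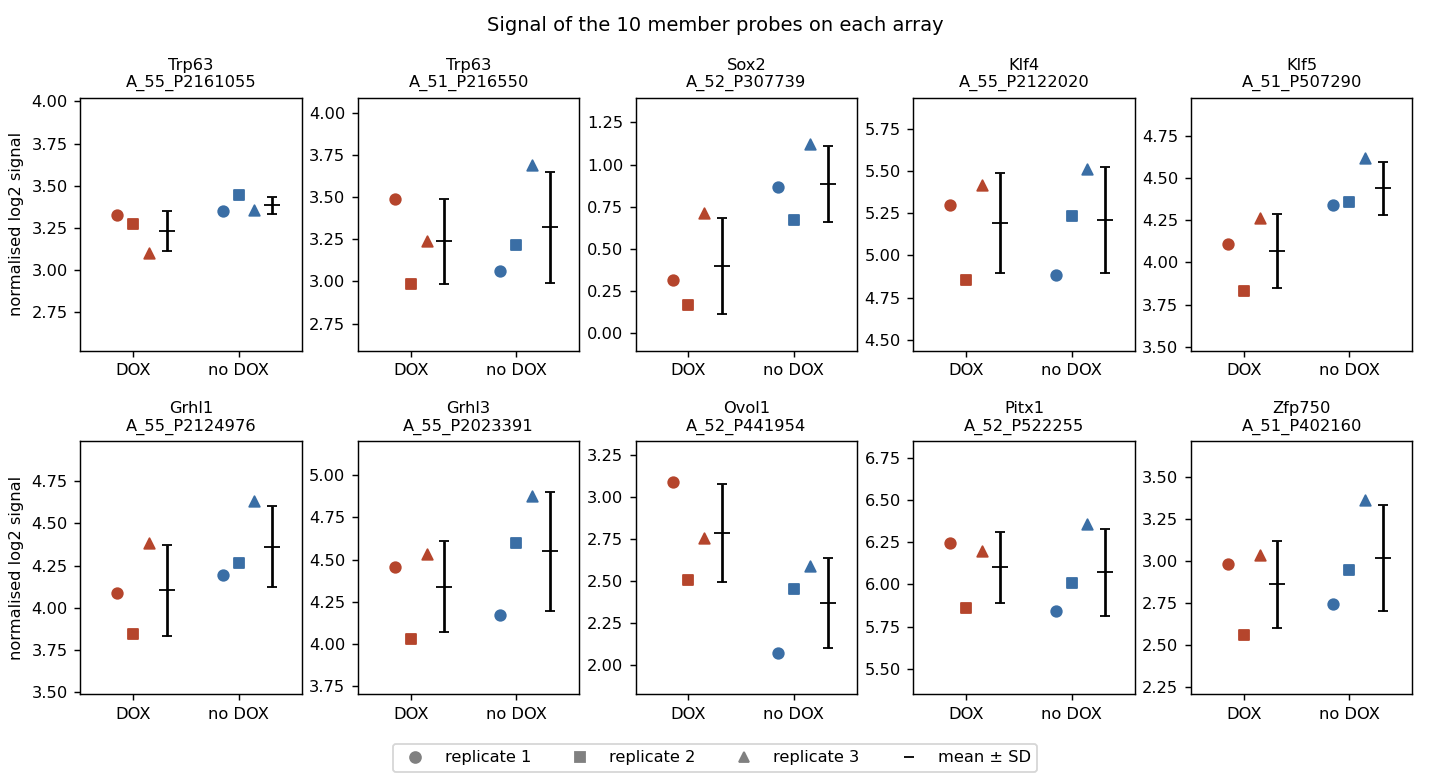
Normalised log2 signal (vertical axis, each panel spanning 1.5 log2 units) of the 10 member probes in the 3 DOX mice (left) and the 3 no DOX mice (right), with the symbol marking the replicate and the bar giving mean ± SD. The groups stay apart for Klf5 and for Trp63 probe A_55_P2161055; for Ovol1 the DOX mean is the higher, at 2.78 against 2.37.

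Sox2, an SRY-box factor, had the largest difference in size among the 9. Its probe (A_52_P307739, NM_011443) read 0.31, 0.17 and 0.71 in DOX mice, against 0.87, 0.67 and 1.12 in no DOX mice. DOX replicates 1 and 2 were the lowest of the 6, while DOX replicate 3 lay just above no DOX replicate 2, so the groups overlapped. The mean was 0.40 ± 0.28 with DOX and 0.89 ± 0.23 without (SD, n = 3 each), a log2 difference of -0.49 ± 0.19 (SE) with a 95% interval from -0.93 to -0.04, or 0.713-fold. It did not pass (limma, adjusted p = 0.236). Exact permutation of the group labels (two-sided, 20 arrangements) gave p = 0.2, and 3 mice against 3 cannot reach below 0.1.

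Klf5, a Kruppel-like zinc finger factor of dividing epithelial cells, had the next largest negative difference. Its probe (A_51_P507290, NM_009769) read 4.11, 3.83 and 4.26 in DOX mice, against 4.34, 4.36 and 4.62 in no DOX mice. Every DOX value lay below every no DOX value. The mean was 4.07 ± 0.22 with DOX and 4.44 ± 0.16 without (SD, n = 3 each), a log2 difference of -0.37 ± 0.15 (SE), or 0.773-fold with a 95% interval from 0.601-fold to 0.994-fold. It did not pass either (limma, adjusted p = 0.257), and the exact permutation p was 0.1. Its relative Klf4, which acts in differentiating cells and in the epithelial barrier, showed nearly equal means. Klf4 (A_55_P2122020) read 5.30, 4.85 and 5.42 in DOX mice, against 4.88, 5.24 and 5.51 in no DOX mice, and its log2 difference was -0.02 with a 95% interval from -0.54 to 0.49. The groups overlapped throughout, and the interval leaves room for a lower level of the size seen for Sox2.

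Ovol1, a zinc finger repressor that in mouse keratinocytes is tied to leaving the cell cycle, was the member with the largest positive difference. Its probe (A_52_P441954, NM_019935) read 3.09, 2.51 and 2.75 in DOX mice, against 2.08, 2.45 and 2.59 in no DOX mice. DOX replicates 1 and 3 were the highest of the 6, and DOX replicate 2 lay between no DOX replicates 2 and 3. The mean was 2.78 ± 0.29 with DOX and 2.37 ± 0.27 without (SD, n = 3 each), a log2 difference of 0.41 ± 0.20 (SE), or 1.33-fold with a 95% interval from 0.955-fold to 1.85-fold. It did not pass (limma, adjusted p = 0.325), and the exact permutation p was 0.2.

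Trp63, the basal master regulator, was read by a pair of probes with near-equal signal that are annotated to different RefSeq transcripts of the gene. The slightly brighter probe (A_55_P2161055, NM_001127261) read 3.33, 3.27 and 3.10 in DOX mice, against 3.35, 3.44 and 3.36 in no DOX mice. Every DOX value lay below every no DOX value, by a narrow margin, and the probe spanned 0.35 log2 units over all 6 arrays, the smallest range of the 10. Its log2 difference was -0.15 ± 0.11 (SE, limma, adjusted p = 0.501). The other probe (A_51_P216550, NM_011641) read 3.49, 2.99 and 3.24 in DOX mice, against 3.06, 3.21 and 3.69 in no DOX mice, and spanned 0.71. Its log2 difference was -0.08 ± 0.21 (SE, adjusted p = 0.875). The pair had the same sign and unlike array patterns: the difference between the probes was 0.17, -0.29 and 0.14 in DOX mice, against -0.29, -0.23 and 0.34 in no DOX mice. The labels and headers do not say which exons each probe reads.

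The Grainyhead-like factors Grhl1, which acts on desmosomal cadherin genes, and Grhl3, which acts in barrier formation, were a little lower on average. Grhl1 (A_55_P2124976) read 4.09, 3.84 and 4.38 in DOX mice, against 4.19, 4.26 and 4.63 in no DOX mice. Grhl3 (A_55_P2023391) read 4.46, 4.03 and 4.53 in DOX mice, against 4.17, 4.60 and 4.88 in no DOX mice. The groups overlapped for both, with log2 differences of -0.26 ± 0.19 and -0.21 ± 0.22 (SE, limma, adjusted p = 0.502 and 0.669). Zfp750, a zinc finger factor of terminal differentiation known best from human keratinocytes as ZNF750, read 2.98, 2.56 and 3.03 in DOX mice, against 2.75, 2.94 and 3.36 in no DOX mice. Pitx1 (A_52_P522255) read 6.25, 5.86 and 6.20 in DOX mice, against 5.84, 6.01 and 6.36 in no DOX mice. Both overlapped, at log2 differences of -0.16 ± 0.20 for Zfp750 and 0.03 ± 0.18 for Pitx1 (SE, adjusted p = 0.740 and 0.950). The 95% interval for Pitx1 ran from -0.39 to 0.45.

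**Figure D2:**
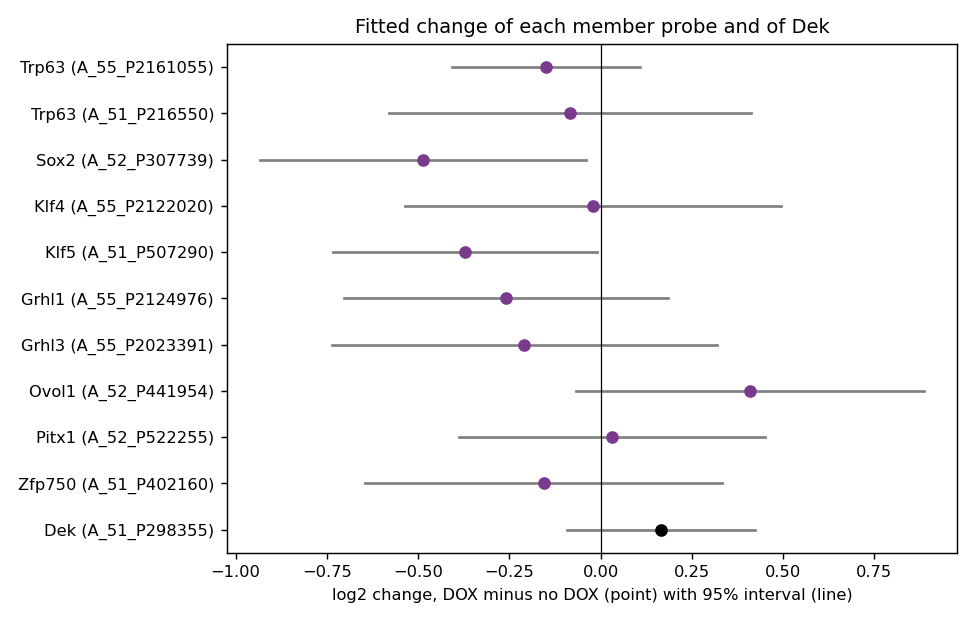
Fitted log2 change (DOX minus no DOX, points) with 95% intervals (lines) for the 10 member probes and Dek. The intervals of Sox2 (-0.93 to -0.04) and Klf5 exclude 0 before adjustment for the 30934 probes tested, and the other 8 member intervals and that of Dek include it.

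RefSeq promoter entries (GRCm38.p6) were matched for Sox2, Klf4, Grhl1 and Grhl3. Those of Sox2 and Grhl3, the matched members with the widest range over the arrays, and of Klf4, whose group means were nearly equal, are shown as the 250 bases before the gene start, 5′ to 3′ on the gene's strand. Capitals mark matches on either strand to motifs of the members' own factor families or to the E-box CACGTG, which clock factors and MYC bind. The Sox2 stretch lies at chr3:34649745-34649994 (plus strand), that of Klf4 at chr4:55532476-55532725 (minus strand) and that of Grhl3 at chr4:135573633-135573882 (minus strand).
Sox2: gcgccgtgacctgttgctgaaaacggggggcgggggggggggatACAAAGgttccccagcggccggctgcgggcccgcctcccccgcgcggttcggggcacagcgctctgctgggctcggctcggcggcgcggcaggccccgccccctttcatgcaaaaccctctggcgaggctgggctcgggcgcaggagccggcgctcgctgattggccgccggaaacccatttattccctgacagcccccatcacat
Klf4: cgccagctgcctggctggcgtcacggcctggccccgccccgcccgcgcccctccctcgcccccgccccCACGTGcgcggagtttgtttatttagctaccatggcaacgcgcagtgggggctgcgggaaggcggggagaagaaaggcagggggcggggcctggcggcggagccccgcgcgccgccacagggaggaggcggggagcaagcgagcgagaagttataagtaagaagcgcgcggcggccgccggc
Grhl3: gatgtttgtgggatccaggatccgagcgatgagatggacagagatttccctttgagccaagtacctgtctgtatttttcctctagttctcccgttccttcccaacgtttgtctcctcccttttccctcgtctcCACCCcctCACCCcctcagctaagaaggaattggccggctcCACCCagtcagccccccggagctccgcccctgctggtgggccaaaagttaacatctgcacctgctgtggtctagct

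The motifs searched were CACCC for Kruppel-like factors, ACAANG for SRY-box factors, AACNGGTT for Grainyhead-like factors, a p53 family motif of paired CATG cores, TAATCC for paired-like homeodomain factors, CCGTTA for Ovo-like factors and CACGTG. Matches of different motifs did not overlap in the stretches shown. Grhl3 held 3 CACCC matches, 117, 109 and 76 bases before its start, and CACCC occurs in 52.0% of 32851 promoter stretches of the same length. Sox2 held 1 ACAANG match 206 bases before its start, a motif found in 36.3% of the stretches. Klf4 held 1 E-box 182 bases before its start, found in 6.02%. The stretches held 0 matches to AACNGGTT, the p53 family motif, TAATCC and CCGTTA, which occur in 1.79%, 0.490%, 6.25% and 2.18% of the same 32851 stretches. The TATA box motif TATAAA was searched too, with 0 matches here, and occurs in 12.4% of them. A match is only a run of letters, and these arrays did not measure binding.

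Most members shared a pattern from mouse to mouse. No DOX replicate 3 was the highest of the 6 arrays for 7 of the 9 genes, where 6189 of the 30934 tested probes peaked there. DOX replicate 2 was the lowest for 6 of the 9, where 6144 of the 30934 were lowest there. The exceptions were Ovol1, highest in DOX replicate 1 and lowest in no DOX replicate 1, Pitx1, lowest in no DOX replicate 1, and the brighter Trp63 probe. The members' mean deviation from their own 6-array averages was 0.03, -0.31 and 0.08 in DOX replicates 1 to 3, against -0.14, 0.03 and 0.31 in no DOX replicates 1 to 3.

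By mean log2 signal, the 8 tongue epithelium markers as a set followed the same mice, and some other epithelial lists did not. The mean normalised log2 signal of the 8 tongue epithelium markers was 6.55, 6.19 and 6.36 in DOX replicates 1 to 3, against 6.38, 6.46 and 6.81 in no DOX replicates 1 to 3, so its lowest and highest arrays were those of the members. Among the 8, Krt4 and Krt13 were highest in DOX replicate 3, Krt14 in DOX replicate 1 and the others in no DOX replicate 3. Basal layer genes and desmosome and adhesion genes had the members' lowest and highest arrays by mean. Suprabasal keratins were instead highest in DOX replicate 1 (6.70) and lowest in no DOX replicate 1 (5.50). Cornified envelope and barrier genes were highest in DOX replicate 3 (6.21) and lowest in no DOX replicate 1 (5.55). The summed signal of the 8 tongue epithelium markers, in multiples of the array's 75th percentile, ran from 1543 to 1751 with DOX and from 1533 to 1954 without. By sum, the lowest epithelium value was that of no DOX replicate 1 (1533), just under DOX replicate 2 (1543). Skeletal muscle markers ran the other way in no DOX replicate 3, with the lowest sum and the lowest mean log2 signal there. Their sum was 3205 to 4145 with DOX and 3007 to 4083 without, highest in DOX replicate 2. Their mean log2 signal was instead highest in no DOX replicate 2, at 7.29 against 7.19 in DOX replicate 2. Salivary and lingual gland markers had summed signals of 1471 to 2057 with DOX and 306.7 to 1105 without; 9 of 11 on the array were tested, 6 of these had a higher mean and 0 passed (smallest limma adjusted p = 0.0649, with 6 at an unadjusted p under 0.05, where 18.8% of all probes were). The part of tissue makeup in the members' values was not tested. The slide's second row held DOX replicates 2 and 3, and its row 1 the other 4 arrays. Within row 1, DOX replicate 1 alone stands against the 3 no DOX arrays. The log2 differences there were -0.57 for Sox2, -0.33 for Klf5, -0.28 for Grhl1 and 0.71 for Ovol1. They were -0.06 for Trp63, -0.09 for Grhl3, -0.03 for Zfp750, 0.09 for Klf4 and 0.18 for Pitx1. The members' median was -0.06 within row 1, against -0.16 over all 6 arrays.

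**Figure D3:**
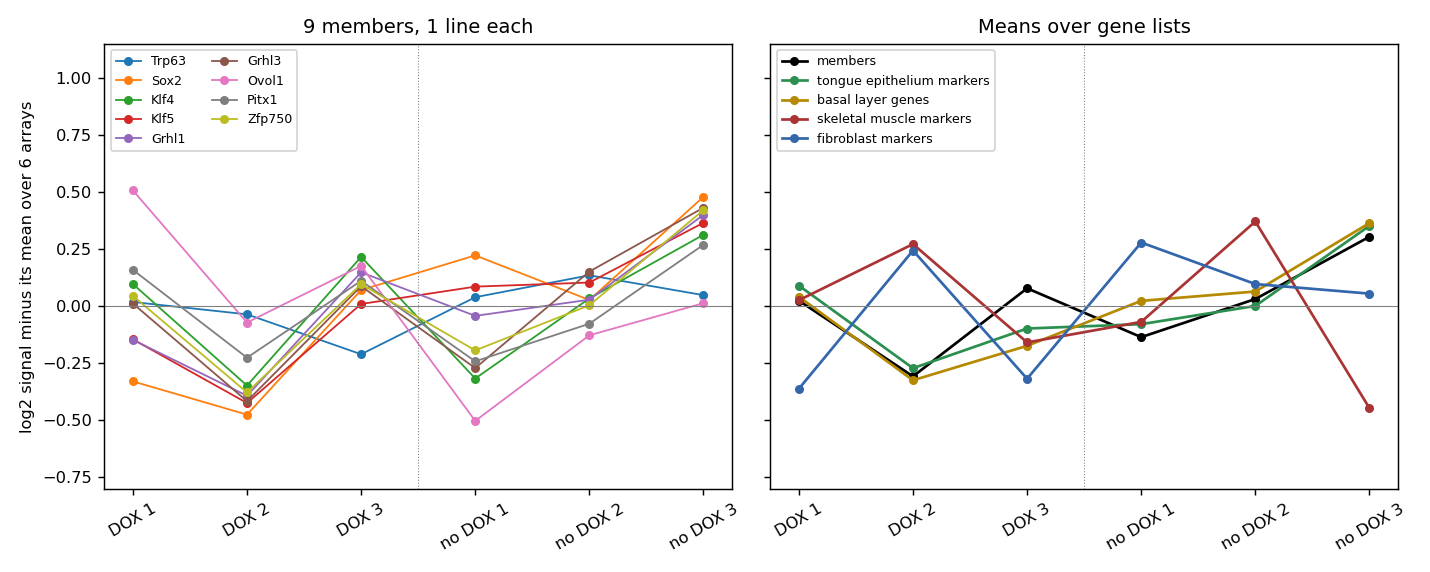
Log2 signal minus its own 6-array mean (vertical axis) in each mouse, for the 9 members (left, brightest probe) and for list means (right). DOX replicate 2 is low and no DOX replicate 3 high for most members and for the mean of the tongue epithelium markers. The skeletal muscle mean is lowest in no DOX replicate 3. Suprabasal keratins and cornified envelope genes, which peak in other arrays, are not drawn.

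Each member was next set against the mean of the other 8 on the same array, a comparison added after the values were seen and given as a description. Relative to the others, Ovol1 stood at 0.54, 0.27 and 0.11 in DOX mice, against -0.41, -0.18 and -0.33 in no DOX mice, a difference of 0.61. The groups did not overlap, with all 3 DOX mice above the 6-mouse average. Pitx1 was higher by 0.19 on this scale without overlap. Sox2 stood at -0.40, -0.19 and -0.01 in DOX mice, against 0.40, -0.01 and 0.20 in no DOX mice, and the groups only just failed to overlap. Klf5 differed by -0.27 without overlap, and the other 5 genes overlapped. The 4 of 9 members without overlap stand beside 18.1% of all tested probes when each is set against the mean of the 9 members. That share is not a like background. Most members share a pattern over the mice, which the subtraction removes from them but not from unrelated probes. The members' values also depend on one another, so the counts are not compared further. Such a ratio within an array does not say which gene differed.

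**Figure D4:**
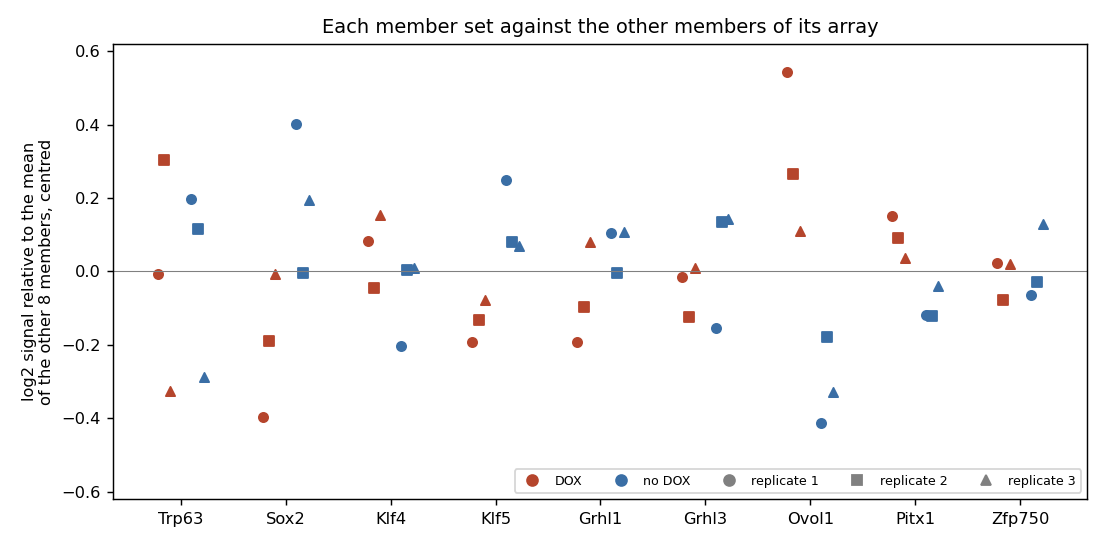
Each member's log2 signal relative to the mean of the other 8 members on the same array, centred on its 6-array mean (vertical axis), for DOX mice (left in each pair) and no DOX mice (right). Ovol1 and Pitx1 lie higher in all 3 DOX mice, and Sox2 and Klf5 lower.

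Each array was also scaled on the 8 tongue epithelium markers, a setting added later. This adds 1 constant per array, so it shifts all differences alike and keeps their order; the median change of all probes became 0.18, and values are read against that. What it can alter is the spread between mice. Ovol1 then read 3.00, 2.78 and 2.85 in DOX mice, against 2.15, 2.45 and 2.24 in no DOX mice, with no overlap. Its log2 difference was 0.59 ± 0.18 (SE), with a 95% interval from 0.19 to 1.00, and it still did not pass (limma, adjusted p = 0.195). Pitx1 did not overlap either, at 6.155, 6.132 and 6.295 in DOX mice, against 5.924, 6.008 and 6.003 in no DOX mice. The share of all probes without overlap was not counted on this scale, so the lack of overlap is a description only. Sox2 was at -0.30 and Klf5 at -0.19 on this scale, with overlapping groups, and Trp63 was at 0.03, below the median of all probes.

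None of the other transcription regulators of epithelium passed the test. Of 40 listed, 39 were tested, 25 had a lower mean with DOX and 14 a higher one, and 0 passed (5 at an unadjusted p under 0.05, where 18.8% of all probes were). Their median log2 change was -0.09, within a range from -0.65 to 0.67, and leaving out DOX replicate 2 or 3 made it -0.04 or -0.15. The smallest p belonged to Maf, Tfap2a, Grhl2, Runx1, Sox21 and Lef1, all lower. Tfap2a, an AP-2 factor of surface epithelium, read 2.68, 2.33 and 2.87 in DOX mice, against 2.99, 3.12 and 3.46 in no DOX mice, and differed by -0.57 ± 0.19 (SE, limma, adjusted p = 0.192). Grhl2, the third Grainyhead-like gene, read 2.08, 2.03 and 2.29 in DOX mice, against 2.52, 2.35 and 2.65 in no DOX mice, and differed by -0.37 ± 0.13 (SE, adjusted p = 0.206). All 3 Grainyhead-like genes thus had a lower mean with DOX, as did 7396 of all 15211 tested genes, and 0 of the 3 passed. Grhl3 was at -0.05 without DOX replicate 2 and also without no DOX replicate 3. Maf was at -0.64 ± 0.20, Runx1 at -0.45 ± 0.17, Sox21 at -0.65 ± 0.26 and Lef1, a Wnt pathway factor, at -0.62 ± 0.30 (SE, adjusted p from 0.175 to 0.327).

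Genes that act in the layers these factors govern did not pass either. Among 18 basal layer genes, 14 had a lower mean with DOX and the median was -0.35, led by Dlk2 (-0.61 ± 0.11, SE), the neurotrophin receptor gene Ngfr (-0.85 ± 0.16) and the hemidesmosome linker gene Dst (-1.14 ± 0.27), at limma adjusted p = 0.0802, 0.0837 and 0.118. Among 16 desmosome and epithelial adhesion genes, 14 were lower, with a median of -0.26. The desmosomal cadherin genes Dsc2 (-0.61 ± 0.19), Dsg2 (-0.53 ± 0.16) and Dsg3 (-0.87 ± 0.33) had the smallest p (adjusted p = 0.172, 0.171 and 0.230). Of 14 suprabasal keratin genes, 7 were higher and 7 lower, with Krt17 at 0.97 ± 0.54, Krt6b at 0.53 ± 0.31 and Krt23 at -0.61 ± 0.20. Of 20 tested cornified envelope and barrier genes, 11 were higher and 9 lower, with Sprr1b at 1.33 ± 0.38, Sprr1a at 0.52 ± 0.24 and the desmoglein gene Dsg1a at -0.60 ± 0.22. Of the 169 tested genes in all these lists and the marker lists, 0 passed and 29 had an unadjusted p under 0.05, beside 18.8% of all probes. With 1 mouse left out, the median ran from -0.41 to -0.21 for basal layer genes (lowest without DOX replicate 1, highest without DOX replicate 2) and from -0.32 to -0.12 for desmosome and adhesion genes (-0.13 without DOX replicate 2 and -0.12 without no DOX replicate 3). For suprabasal keratins it was 0.05 without no DOX replicate 1, 0.13 without DOX replicate 1 and 0.48 without no DOX replicate 3. Within slide row 1 the median was -0.07 for basal layer genes and -0.12 for desmosome and adhesion genes. It was 0.53 there for suprabasal keratins and 0.08 for cornified envelope and barrier genes.

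**Figure D5:**
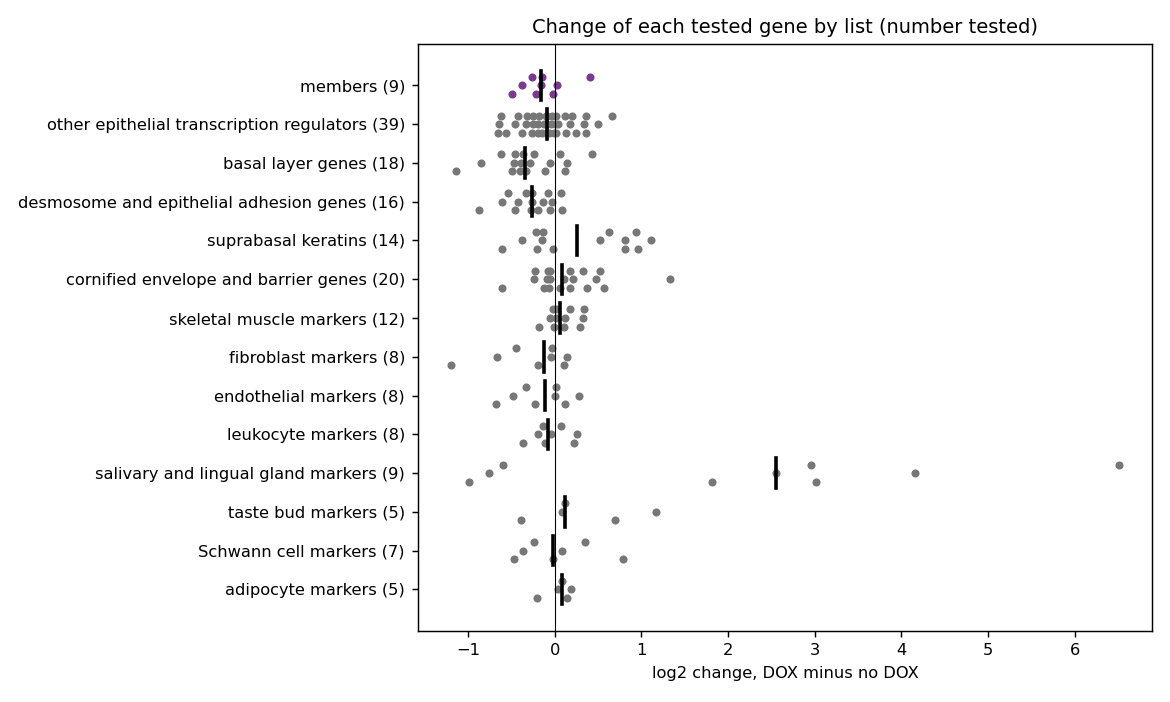
Log2 change (DOX minus no DOX, horizontal axis) of each tested gene, by list, with a bar at the median. The members' median is -0.16, the basal layer list's -0.35 and the suprabasal keratin list's 0.26; the gland markers spread from -0.98 to 6.51, and 0 of the genes shown passed.

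Markers of other cell types gave no call. The salivary and lingual gland markers had a median log2 change of 2.55 (9 tested, 1.61 without no DOX replicate 2), by far the largest of these lists. That median was 1.71 with another background correction (normexp) and 2.19 for probes well above background on all 6 arrays. The list was not uniform, as Dcpp1 (-0.76), Aqp5 (-0.98) and Smgc (-0.60) had lower means with DOX. The other medians were 0.06 for skeletal muscle (12 tested), -0.12 for fibroblast (8), -0.11 for endothelial (8), -0.08 for leukocyte (8), 0.12 for taste bud (5), -0.01 for Schwann cell (7) and 0.09 for adipocyte markers (5), each at most 0.36 in size with any 1 mouse left out. Sox2 is also active in the taste lineage, so the taste markers stand beside it: Tas1r2, a sweet taste receptor subunit, was at 1.17 ± 0.25 and Ptch1, a Hedgehog receptor, at -0.39 ± 0.15 (SE, limma, adjusted p = 0.0991 and 0.244). Other smallest-p genes were Myh1 (0.33) and Mylpf (0.34) for muscle, Col3a1 (-1.20) and Col1a2 (-0.66) for fibroblasts, Egfl7 (-0.67) and Cdh5 (-0.48) for endothelium, Ptprc (-0.37) and Cd68 (0.26) for leukocytes, Bhlha15 (1.82) and Lpo (2.55) for glands, Mbp (-0.47) and Sox10 (0.79) for Schwann cells, and Plin1 (-0.20) and Lpl (0.19) for adipocytes.

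The genes whose pattern over the 6 mice was most like that of a member were found for the 3 members with the widest range, Ovol1 (1.01 log2 units), Sox2 (0.95) and Grhl3 (0.85). Likeness was the root mean square distance between centred log2 values, searched over 14435 named genes. Nearest to Ovol1 were Cdc42se1 (distance 0.033), Baz1a (0.054) and Ppan (0.057). Cdc42se1 read 2.37, 1.83 and 2.04 in DOX mice, against 1.44, 1.72 and 1.87 in no DOX mice, the same rank order of mice as Ovol1. Nearest to Sox2 were Stk26 (0.044), Fabp6 (0.051) and Mtag2 (0.062). Nearest to Grhl3 were Sh3bp1 (0.054), Kcnk7 (0.058) and the desmoglein gene Dsg1b (0.063). None of these 9 genes passed the test (limma, adjusted p from 0.203 to 0.823), and with 6 points and 14435 genes such likeness is a description only.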

How the data were processed

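The deposited files of each array give linear spot intensity, already background-subtracted in the processed signal, and per the file headers were made with Agilent Feature Extraction, version 11.5.1.1. A deposited value table holds the same intensity multiplied by 1 factor per array (3.70 to 3.99; column medians 90.01, 97.5 and 93.7 for DOX and 102.5, 94.2 and 92.7 for no DOX). How the factors were set is not stated, and the table served as an alternative. Groups follow the treatment label, replicate numbers the titles. The 6 arrays shared 1 slide, and 0 spots were saturated.

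Outlier spots (146 to 195 of 59305 per array) were left out. Each probe's spots were averaged as log2 processed signal, minus the array's 75th percentile. Accessions were looked up in RefSeq (GRCm38.p6): 28331 of 55681 probes had 1 symbol and 27350 none. Probes well above background on all 3 arrays of a group were tested with limma 3.58.1 (R 4.3.3; lmFit, eBayes, two-sided, Benjamini-Hochberg over all tested probes), and 14 of them lacked a value on at least 1 array. The fit was tested on simulated data drawn with each probe's mean and spread. At an adjusted p under 0.05 it recovered 15% of added log2 changes of 0.5, 60.5% of those of 1 and 89% of those of 2. A change of the size seen in the members would thus mostly be missed. The brightest probe stood for a gene. Genes named from a list have the smallest p in it (6 for transcription regulators, 3 for other epithelial lists, 2 for other cell types). Named outside that rule were Dek, keratin markers given as examples and the nearest-pattern genes. So were Dcpp1, Aqp5 and Smgc, the gland genes with a lower mean. Members and lists were chosen with earlier results of these data known, so lists are given as counts and medians. The number of arrays limits the precision. Alternatives covered background correction, scaling, the filter, the variance model, the replicate number as a block and leaving out each mouse; normexp used the median signal.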

Additional observations from a re-analysis of the deposited data

How the results depend on the processing

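Across 21 other settings, 0 of the 9 genes passed in any (limma; lowest adjusted p 0.145, for Sox2 without DOX replicate 3), and none passed at an adjusted p under 0.1. Sox2 stayed between -0.65 and -0.25, Klf5 between -0.47 and -0.16 and Ovol1 between 0.26 and 0.71 (log2), each with 1 direction; Dek stayed between 0.11 and 0.35. Some small differences changed sign. Scaling on epithelium markers shifts all genes alike (median of all probes 0.18). DOX replicate 2 and no DOX replicate 3 were chosen as the lowest and highest arrays for most members. Leaving both out raises, by construction, the differences of members with those extremes. Trp63, without them in its brighter probe, went from -0.15 to -0.18. Sign changes under these 2 settings therefore carry no evidence. Pitx1 was at -0.01 with quantile normalization and ran from -0.08 to 0.17 with 1 mouse left out. Klf4 was at 0.03 with array weights, 0.09 both with slide row as a block and within row 1 (equal by construction, since row 2 holds only DOX and row 1 a single DOX mouse), 0.16 with scaling on epithelium markers and 0.30 without both DOX replicate 2 and no DOX replicate 3, and ran from -0.19 to 0.15 with 1 mouse left out. Zfp750 was at 0.03 with scaling on epithelium markers and 0.17 without those 2 mice, and ran from -0.29 to 0.02 with 1 mouse left out. With scaling on epithelium markers Trp63 was at 0.03, and without those 2 mice Grhl1 was at 0.01 and Grhl3 at 0.11. The members' median was -0.29 to -0.05 with 1 mouse left out. Other causes were not tested.

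The array-wide count of 124 was 284 with normexp (offset 50), 224 with an intensity trend, also with robust settings, 318 with array weights, 873 at an adjusted p under 0.1 and 1 with no filter on dim probes. With slide row as a block it was 37 and within row 1 it was 12, which are not separate checks. It was 3 to 60 with 1 mouse left out and 0 without the 2 mice (5443 at an unadjusted p under 0.05). Same-numbered mice showed no sign of deviating together (correlations of -0.115, -0.009 and 0.01, against -0.136 to 0.149 for unlike numbers). With 3 mice per group this cannot exclude a pairing. With the replicate block the array-wide count was 0 (5605 at an unadjusted p under 0.05), the members' count stayed 0 and Sox2 stayed at -0.49. Context genes called numbered 2 with normexp (Bhlha15 and Dlk2), 1 each with median scaling and the trend settings (Bhlha15), array weights and scaling on epithelium markers (Lpo), and 5 at an adjusted p under 0.1 (Bhlha15, Dlk2, Lpo, Ngfr and Tas1r2). Slide row, epithelium scaling and the 2-mouse setting were added after the data were seen. All member probes were well above background on all 6 arrays; that of Sox2 was the dimmest, with processed signals of 282.6 to 425.7 in DOX mice and 390.9 to 536.5 in no DOX mice.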
